A study of Sus scrofa with 23 samples.

Results

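CKB, the brain-type creatine kinase, and ARG1, liver-type arginase, are 2 of the 8603 genes in the expression table of a study of cloned and in vivo fertilized pig embryos before implantation, and they were followed through all 23 of its libraries. Both were selected on a measured value: in the in vivo fertilized embryos they had the second and the third largest rise from the 4-cell to the 8-cell stage among genes with a symbol and at least 10 FPKM (fragments per kilobase of gene and per 1000000 fragments) in either library. That rise is therefore described below and not tested.

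The IV-D group held in vivo fertilized Duroc embryos, with in vivo matured Duroc oocytes as its first stage. The NT-D and NT-LW groups held clones made by somatic cell nuclear transfer from ear fibroblasts, those of NT-D from one 1-year-old Duroc boar and those of NT-LW from one 1-year-old Laiwu boar, so each cloned group stands for 1 donor animal. The IV-D oocytes came from 2-year-old Duroc sows, and the IV-D embryos from pregnant Duroc sows were all sired by the same Duroc boar that gave the NT-D cells. The clones, all male, were cultured in PZM3 medium, whereas IV-D embryos were of mixed sex and had developed in the sow. The recipient oocytes had matured in vitro and, per the study's methods, came from hybrid sows, although their label gives Duroc. Their library, labelled NT-D, was used as the first stage of NT-D and of NT-LW. Oocytes or embryos were pooled for each library, those of an IV-D embryo stage from 1 sow, and the table used here has 1 library for each condition. The study also sequenced biological replicates of some stages of IV-D and NT-D, which were not analysed here. Thus no spread between embryos could be estimated, no p-value between conditions was computed, and every interval is a 95% interval that covers counting error only. The embryos were sampled as 1-cell, 2-cell, 4-cell and 8-cell embryos, as morulae, and as blastocysts separated into a part with inner cell mass and trophectoderm together (IT) and a part of trophectoderm alone (TE).

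Creatine kinase moves phosphate between ATP and creatine. In this way cells keep a reserve of phosphocreatine that refills ATP near the sites where it is used, and the brain-type enzyme is the form of most tissues other than muscle, taking creatine that the transporter SLC6A8 brings into the cell. Arginase splits arginine into urea and ornithine. ARG1 is the cytosolic form, best known from the urea cycle of the liver, and ARG2 is the mitochondrial form. Ornithine can be turned by ODC1 into putrescine, the first polyamine, or by OAT towards proline, and polyamines are needed for growth and for implantation in pigs and other mammals.

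In the RefSeq annotation of Sscrofa11.1, the build the authors used, ARG1 lies on chromosome 1 from 32006035 to 32028983 on the minus strand, and its curated transcript of 8 exons starts at 32020302. CKB has not been placed on a chromosome: it lies on the unplaced scaffold Contig1914 from 2070843 to 2074141 on the minus strand, with 8 exons. No annotated gene overlaps either of them. The genes next to them in the table were lower than either in IV-D 8-cell embryos. MARK3, a kinase gene 15785 bases from CKB, had 5.42 FPKM in the IV-D 4-cell library and 17.5 in the 8-cell library, and BAG5, a co-chaperone gene 30603 bases away on the other side, 0.0450 and 6.88, with 4.22 and 2.27 in the 8-cell clones. MED23, a Mediator subunit gene 4444 bases from ARG1, had 4.05 and 8.82, and AKAP7, an anchoring protein gene 192078 bases away, 17.9 and 11.7.

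The 250 bases before the annotated start of each gene are shown, 5′ to 3′ on the gene's strand, so that the sequences at the starts of 2 genes that rose at the same step can be set side by side. Capitals mark matches to 7 short motifs searched on both strands: the TATA box as TATAAA, the CCAAT box by its own letters, the GC box of the SP factors as GGGCGG, the element of the TEAD factors as GGAATG, the element of the AP-1 factors as TGANTCA, the E-box of basic helix-loop-helix factors as CACGTG, and the core of the ATF and CREB element as TGACGT.
CKB, Sscrofa11.1 Contig1914:2074142-2074391, minus strand: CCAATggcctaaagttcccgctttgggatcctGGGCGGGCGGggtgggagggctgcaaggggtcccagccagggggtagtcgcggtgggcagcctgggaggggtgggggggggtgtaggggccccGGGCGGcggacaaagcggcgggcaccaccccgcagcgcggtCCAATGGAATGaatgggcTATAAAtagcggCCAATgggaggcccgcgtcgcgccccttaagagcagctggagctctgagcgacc
ARG1, Sscrofa11.1 chr1:32028984-32029233, minus strand: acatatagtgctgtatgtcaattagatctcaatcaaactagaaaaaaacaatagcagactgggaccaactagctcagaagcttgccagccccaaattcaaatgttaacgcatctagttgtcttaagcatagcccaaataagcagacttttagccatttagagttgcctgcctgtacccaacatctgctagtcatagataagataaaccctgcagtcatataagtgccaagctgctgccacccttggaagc

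The CKB window had 69.6% G and C with 19 CG pairs, and the ARG1 window had 42% with 1 CG pair. CKB held 3 CCAAT, 3 GGGCGG (the first pair overlapping), 1 GGAATG and 1 TATAAA, the last beginning 66 bases before the start. Such motifs are common: of 20664 windows of the same length before protein-coding genes, 32% held CCAAT, 44.4% GGGCGG, 10.4% TATAAA and 10.4% GGAATG. The ARG1 window held none of the 7 motifs, and neither window held the AP-1, E-box or ATF and CREB letters, which stood in 5.48%, 6.16% and 6.65% of windows. The ARG1 window belongs to the most distal annotated start, that of predicted transcripts, and not to the curated start at 32020302. The CKB window lies before the start of its curated transcript, so the windows are not alike in kind. Which start embryos use was not analysed here. A match, or the lack of one, describes the letters only.

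From the oocyte to the 4-cell stage both genes were close to the limit of detection. CKB had 0.225, 0, 0.131 and 0.568 FPKM in the IV-D oocyte, 1-cell, 2-cell and 4-cell libraries, from 8, 0, 5 and 15 fragments. In the NT-D libraries it had 0.165, 0.260, 0.0663 and 0.599 FPKM at the same stages, and in the NT-LW 1-cell, 2-cell and 4-cell libraries 0.705, 0.296 and 0.376 FPKM. ARG1 had no fragment in the oocyte and 1-cell libraries of any group, nor in the NT-D 2-cell library. A count of 0 allows a level of up to that of 3 fragments, which was 0.0741 to 0.0979 FPKM in these libraries. ARG1 was first seen in IV-D 2-cell embryos, at 0.481 FPKM from 21 fragments, while the NT-LW 2-cell library held 2 fragments.

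By the 4-cell stage the ARG1 level was 0.466 in IV-D, 0.456 in NT-D and 0.551 FPKM in NT-LW. The 3 intervals overlapped at this stage for both genes, so no difference between the groups was detectable at this depth. The 4-cell ratio of NT-D to IV-D was 1.05 (0.481 to 2.32) for CKB and 0.980 (0.424 to 2.25) for ARG1, which also shows how wide a difference these few fragments would have let pass.

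At the 8-cell stage the IV-D library stood apart. CKB reached 504 FPKM (497 to 512), against 24.8 (23.1 to 26.6) in NT-D and 7.89 (6.87 to 9.02) in NT-LW. ARG1 reached 309 FPKM (304 to 315), against 13.1 (11.9 to 14.3) in NT-D and 14.3 (13.0 to 15.7) in NT-LW. Within 1 stage CKB went from rank 7535 to rank 136 of the genes in the IV-D libraries by FPKM, and ARG1 from 7670 to 255.

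Morulae of all groups had high levels of both. CKB stood at 1708 FPKM in IV-D, 1877 in NT-D and 1642 in NT-LW morulae, where it was between the 20th and the 33rd gene of the table by FPKM. ARG1 stood at 354, 197 and 420 FPKM in the same order. The low 8-cell levels of the clones had thus been followed by morula levels within 1.10 times that of IV-D for CKB, above it in NT-D and slightly below it in NT-LW.

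In the blastocyst the genes parted. CKB had 2519 FPKM in IV-D IT, the highest of its 23 levels, and 157 in IV-D TE, while NT-D had 311 in IT and 340 in TE and NT-LW 307 and 498. ARG1 kept within a narrow range, with 212, 211 and 272 FPKM in the IT libraries of IV-D, NT-D and NT-LW and 142, 260 and 204 in their TE libraries.

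**Figure D1:**
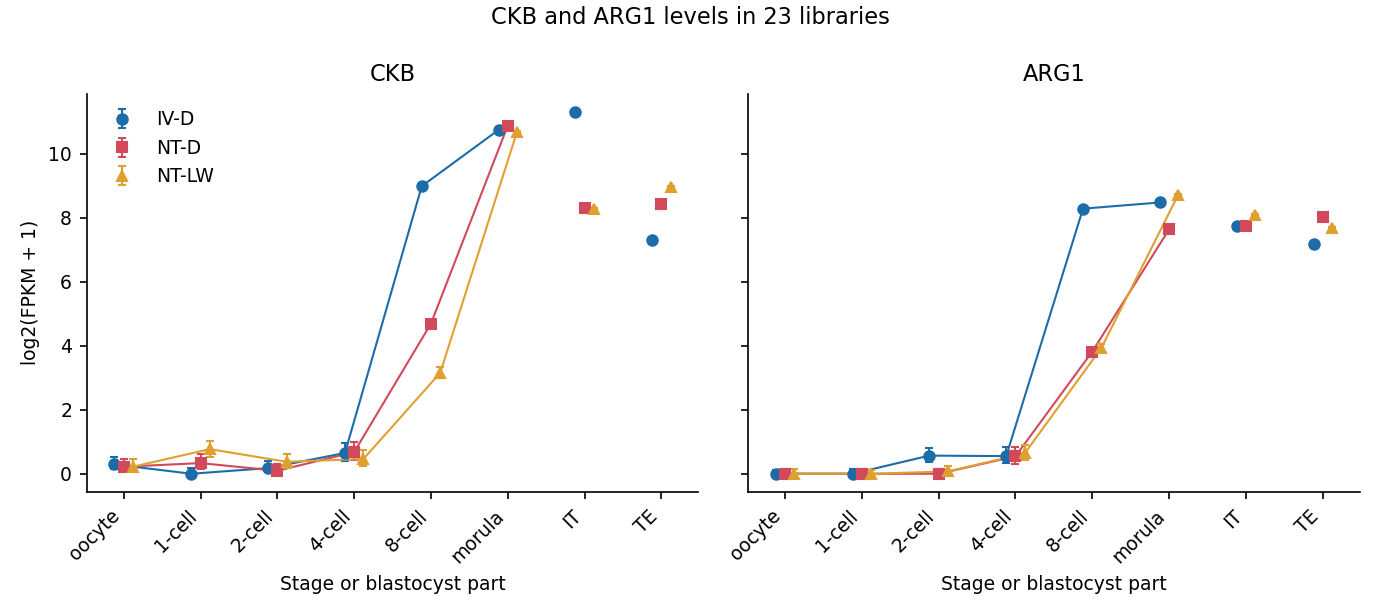
Level of CKB (left) and ARG1 (right) as log2(FPKM + 1) on the vertical axis against stage or blastocyst part, 1 point for each of 23 libraries with its 95% counting interval; the NT-D oocyte library is drawn for both cloned groups and lines join the stages up to the morula. At the 8-cell stage the clones (CKB 24.8 and 7.89 FPKM, ARG1 13.1 and 14.3) lie far below IV-D (504 and 309). At the morula stage the CKB points come together (1642 to 1877 FPKM), and those of ARG1 lie closer than before but still apart (197 to 420).

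In the order of levels, CKB ran from IV-D IT through the 3 morula libraries, the IV-D 8-cell library and the remaining blastocyst libraries to the 8-cell clones, and then to the 11 libraries up to the 4-cell stage, none of them above 0.705 FPKM. Only 2 neighbouring pairs among its 12 upper levels had overlapping intervals: IV-D 8-cell with NT-LW TE (504 and 498 FPKM), and NT-D IT with NT-LW IT (311 and 307). ARG1 was highest in the NT-LW morula and followed by the IV-D morula and the IV-D 8-cell library. Its levels in IV-D IT, NT-D IT, NT-LW TE and the NT-D morula, from 212 down to 197 FPKM, could not be told apart from neighbour to neighbour, and neither could those of the 8-cell clones. Among the lower 11 libraries all neighbours overlapped for CKB, and for ARG1 all but the NT-D 4-cell and the NT-LW 2-cell library.

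The range of levels was wider for CKB. Over the 12 libraries from the 8-cell stage onward it ran from 7.89 to 2519 FPKM with a median of 419, and ARG1 from 13.1 to 420 with a median of 211. CKB exceeded ARG1 in 11 of these 12 libraries, the exception being NT-LW 8-cell embryos, where the ratio of FPKM was 0.553. The ratio was largest in IV-D IT, at 11.9, and next in the NT-D morula, at 9.51.

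The step that selected the genes, from 4-cell to 8-cell in IV-D, was an 888-fold increase (538 to 1587) for CKB and a 665-fold increase (396 to 1216) for ARG1. On the log2(FPKM + 1) scale, used below for all calls because it damps low levels, the differences were 8.33 and 7.73. SULT1E1, an estrogen sulfotransferase, stood above them at 10.39, and RNASE1, a secreted ribonuclease, at 7.69, and ATP6V0D2, a proton pump subunit, at 7.35, were just below. A gene was called higher or lower when this value changed by over 1 with 1 FPKM or more in at least 1 of the libraries, a rule of size with no test, and genes with that FPKM are those counted as tested below. By it 35.0% of 7995 genes were higher and 28.1% lower at this step, from which nothing is read for the genes chosen on it.

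In the clones, whose values did not enter the ranking of IV-D rises, the same step was smaller but in the same direction. The genes were chosen with earlier results of these data known, so this step too is described and not tested. CKB rose 41.4-fold (25.0 to 74.4) in NT-D and 21.0-fold (11.8 to 41.2) in NT-LW, and ARG1 28.6-fold (16.6 to 54.2) and 25.9-fold (16.6 to 42.9). All 4 were called higher, as were 31.4% of genes in NT-D and 28.1% in NT-LW, and the log2 differences of CKB ranked 124th of 7830 and 428th of 7848 genes tested. Those of ARG1 ranked 323rd and 234th.

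From the 8-cell stage to the morula the larger rises were those of the clones. The IV-D rise starts from the 8-cell library in which the genes were chosen for being high, so a small rise there was favoured by the choice. CKB rose 75.6-fold (70.5 to 81.2) in NT-D and 208-fold (182 to 239) in NT-LW, the 7th of 7968 and the 3rd of 7708 genes by log2 difference, but 3.39-fold (3.33 to 3.44) in IV-D. ARG1 rose 15.1-fold (13.8 to 16.6) in NT-D and 29.4-fold (26.8 to 32.4) in NT-LW, and in IV-D it was 1.14-fold higher (1.12 to 1.17), which was not called. The background of calls was 31.6% of genes higher in NT-D, 22.4% in NT-LW and 12.3% in IV-D. This background depends on scaling: of the genes called in NT-D and NT-LW, 72.6% and 64.3% were higher, and 50.8% and 46% after median-ratio scaling, while the calls of CKB and ARG1 stayed. At this step all genes had a median log2 difference of 0.45 (NT-D) and 0.19 (NT-LW), far below those of CKB (6.18 and 7.53) and ARG1 (3.82 and 4.78).

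Between the groups at the 8-cell stage, CKB was 20.3-fold lower (18.9 to 21.8) in NT-D and 64.0-fold lower (55.9 to 73.5) in NT-LW than in IV-D. ARG1 was 23.7-fold lower (21.6 to 26.0) in NT-D and 21.7-fold lower (19.7 to 23.9) in NT-LW. These comparisons use the IV-D 8-cell library in which the genes were chosen for being high, and both cloned groups are set against that 1 library. Of all genes tested 17.4% were lower in NT-D and 17.3% in NT-LW. Counted from the largest decrease, CKB was the 20th of 7441 genes in NT-D and the 5th of 7618 in NT-LW, and ARG1 the 14th and the 31st. In NT-D 38.4% of called genes were higher and after median-ratio scaling 51.8%, with the calls of both genes kept.

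Between the cloned groups CKB was 3.15-fold higher (2.70 to 3.68) in NT-D than in NT-LW 8-cell embryos, a call that 2.15% of genes shared, and ARG1 was 1.09-fold lower with an interval of 0.958 to 1.25, which includes a ratio of 1. Of the genes called here 35% were higher in NT-D, and 45.1% after median-ratio scaling. Bulk libraries cannot separate fewer cells that carry a transcript from less of it in each cell. Of 13 listed oocyte transcripts 9 were in the table, and none of the 9 was at 0 in the 8-cell libraries. Their summed level was 25.5 FPKM in IV-D, 205 in NT-D and 266 in NT-LW 8-cell embryos. Most of the sum in the clones came from ZP4 (5.77, 100 and 114 FPKM in the same order) and BMP15 (2.02, 48.4 and 56.8). ZP3 was lower in both cloned groups (2.04, 0.909 and 1.68), and MOS was lower in NT-D only (2.06, 1.83 and 3.21). The others were higher in both. In NT-D morulae the sum was 239 FPKM, where CKB stood at 1877 and ARG1 at 197. In IV-D and NT-LW morulae it was 9.34 and 33.0 FPKM, with CKB at 1708 and 1642 and ARG1 at 354 and 420. The part of these oocyte transcripts in the 8-cell difference was not tested.

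At the morula stage neither gene was called between a cloned group and IV-D. CKB was 1.10-fold higher (1.09 to 1.11) in NT-D and 1.04-fold lower (1.03 to 1.05) in NT-LW, and ARG1 1.79-fold lower (1.74 to 1.84) in NT-D and 1.19-fold higher (1.16 to 1.22) in NT-LW. After median-ratio scaling the ARG1 level of NT-D was called lower. That scaling moved the share of higher genes among those called from 82.8% to 66.3% in NT-D and from 74.1% to 52.5% in NT-LW. NT-D morulae had 2.13-fold less ARG1 (2.07 to 2.19) than NT-LW morulae, called lower as were 7.02% of genes.

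**Figure D2:**
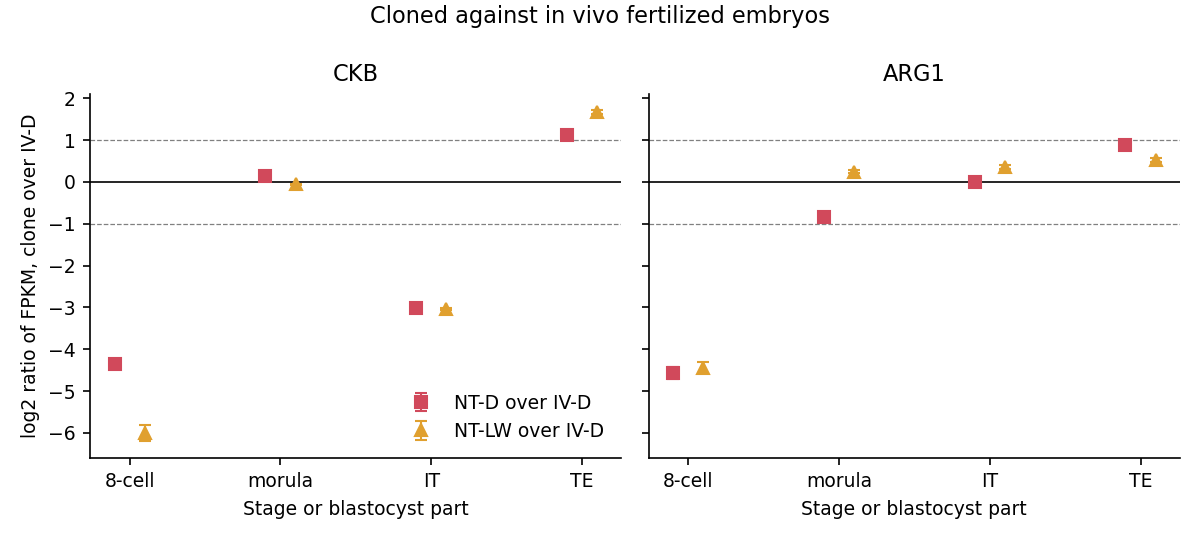
Log2 of the ratio of FPKM in cloned over IV-D embryos on the vertical axis for CKB (left) and ARG1 (right) at the 8-cell and morula stages and in the IT and TE parts, with 95% counting intervals; dashed lines mark a factor of 2 in either direction, and the IV-D library is the same for both cloned groups. Both genes are 20.3- to 64.0-fold lower at the 8-cell stage, in the morula neither passes a factor of 2, and in IT CKB is again lower, by 8.10- and 8.20-fold.

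The fall of CKB after the morula differed in place between the groups. From morula to IT it was 6.04-fold lower (5.92 to 6.16) in NT-D and 5.34-fold lower (5.23 to 5.46) in NT-LW, both called, as were 35.1% and 28.1% of genes, while in IV-D it was 1.47-fold higher (1.46 to 1.49), which was not called. Of the genes called at this step 21% were higher in NT-D and 24.5% in NT-LW, and 53.2% and 57.7% after median-ratio scaling, under which both calls of CKB stayed; in IV-D the share went from 50.4% to 75.6%. From morula to TE it was lower in all 3 groups, by 10.9-fold in IV-D, 5.52-fold in NT-D and 3.30-fold in NT-LW, where 24.6%, 38.5% and 40.3% of genes were called lower. The NT-LW call was lost with median-ratio scaling, which also moved the share of higher genes among those called from 32.7% to 54.1% in IV-D, from 18.4% to 49.5% in NT-D and from 17.9% to 54.6% in NT-LW. The medians of all genes at this step were -0.38, -0.69 and -0.78 on the log2 scale, against -3.44, -2.46 and -1.72 for CKB.

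ARG1 was not called from morula to IT in any group, with ratios of 0.599 (0.582 to 0.616) in IV-D, 1.07 (1.03 to 1.10) in NT-D and 0.647 (0.631 to 0.664) in NT-LW. From morula to TE it was called lower in IV-D, by 2.49-fold, and in NT-LW, by 2.06-fold, and both calls were lost with median-ratio scaling. In NT-D it was 1.32-fold higher (1.27 to 1.36), a difference called only with that scaling.

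Comparing the parts of the blastocyst directly, CKB was 16.1-fold higher (15.6 to 16.6) in IT than in TE of IV-D embryos, the 28th of 7093 genes, of which 18.0% were called higher in IT and 9.83% lower. In the clones it was not called: NT-D had a ratio of IT to TE of 0.914 (0.889 to 0.941) and NT-LW 0.617 (0.602 to 0.632), where the share of called genes that were higher in IT was 81.2% and 48.7% after median-ratio scaling. ARG1 was called in no group, with ratios of 1.49 (1.44 to 1.55) in IV-D, 0.811 (0.786 to 0.836) in NT-D and 1.33 (1.29 to 1.37) in NT-LW.

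Against IV-D, CKB in IT was 8.10-fold lower (7.94 to 8.26) in NT-D and 8.20-fold lower (8.04 to 8.37) in NT-LW, calls shared by 15.4% and 13.7% of genes. In TE it was 2.17-fold higher (2.09 to 2.25) in NT-D and 3.18-fold higher (3.06 to 3.29) in NT-LW, called as were 3.13% and 6.26% of genes. CKB of the clones thus lay below IV-D in IT and above it in TE. In TE of NT-LW 38% of called genes were higher, and 54.3% after median-ratio scaling. For ARG1 no call was made in either part, and the IT ratio of NT-D to IV-D was 0.994 (0.964 to 1.03).

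The IV-D parts were also less alike over the whole table than those of the clones. Across the genes of the table, which are not independent replicates, Pearson's r of log10(FPKM + 1) between IT and TE was 0.914 in IV-D, 0.982 in NT-D and 0.979 in NT-LW, and between IT and morula 0.956, 0.868 and 0.901. The table holds 4 of the 12 markers listed for inner cell mass and hypoblast. Their summed level was 62.3 FPKM in IT and 22.4 in TE of IV-D, 42.0 and 25.3 in NT-D and 44.3 and 39.7 in NT-LW. GATA6, a hypoblast factor, made up most of each sum, with 37.7, 34.0 and 37.4 FPKM in IT of IV-D, NT-D and NT-LW and 21.4, 24.0 and 36.3 in TE. NANOG, a pluripotency factor, had 9.80, 5.00 and 3.76 FPKM in IT and was at 0 in every TE library. KLF17 had 14.2, 2.56 and 2.45 FPKM in IT and 0.821, 1.18 and 3.30 in TE, so in NT-LW it was higher in TE, and GATA4 stayed under 1 FPKM in all 6 libraries. Of 14 trophectoderm markers 8 were in the table, and none of the 8 was at 0 in any blastocyst library, with sums of 2743 FPKM in IT and 2384 in TE of IV-D, 3159 and 4009 in NT-D and 3963 and 5643 in NT-LW. In IV-D the largest part was PTGES, with 1322 FPKM in IT and 1042 in TE. GATA3 (5.42 and 14.0) and DAB2 (137 and 182) were lower in IT of IV-D, and the rest of the 8 were higher there. The share of inner cell mass in each IT library is not known, and its part in the CKB difference was not tested.

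**Figure D3:**
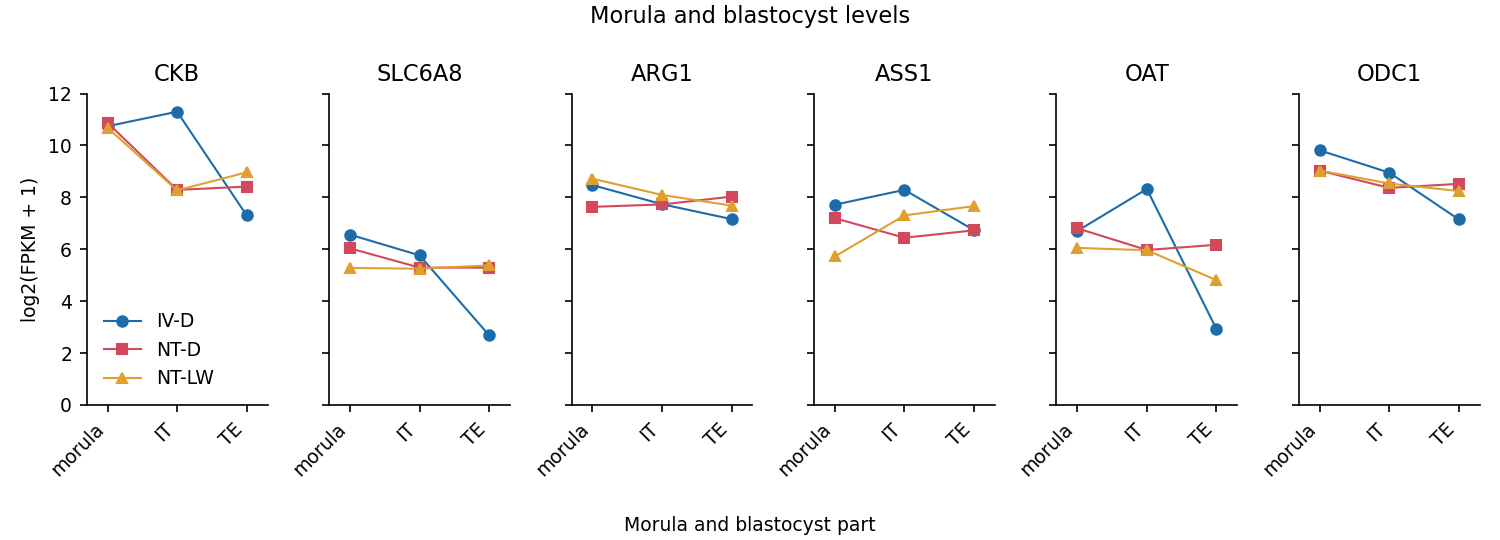
Levels as log2(FPKM + 1) on the vertical axis in the morula and the IT and TE parts for CKB, the creatine transporter SLC6A8, ARG1, and ASS1, OAT and ODC1 of arginine and polyamine metabolism; each line joins the 3 libraries of 1 group. In IV-D, CKB (2519 against 157 FPKM), SLC6A8 (53.4 against 5.42) and OAT (319 against 6.58) are far higher in IT than in TE, and in NT-D the IT and TE values of each gene are within a factor of 2 of each other.

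CKB was the only creatine kinase in the table. Of 24 genes listed for creatine and phosphagen metabolism, which the table holds in part, 7 were present: CKB, the transporter SLC6A8, the adenylate kinase AK6 and the nucleoside diphosphate kinases NME1, NME2, NME6 and NME7. The synthesis enzymes GATM and GAMT and the other creatine kinases were not analysed here. SLC6A8 was low when CKB was: it did not exceed 0.822 FPKM up to the 4-cell stage, and reached 34.9 FPKM in IV-D 8-cell embryos against 4.44 in NT-D and 4.35 in NT-LW. Its morula levels were 93.5, 64.6 and 37.8 FPKM in IV-D, NT-D and NT-LW.

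In the IV-D blastocyst the transporter, like CKB, was higher in IT, with 53.4 FPKM in IT and 5.42 in TE, a 9.85-fold difference. In the clones its 4 blastocyst levels lay between 37.0 and 40.6 FPKM. The ratio of CKB to SLC6A8, both per length, was 14.4 in IV-D, 5.59 in NT-D and 1.81 in NT-LW 8-cell embryos, and at the morula stage the clones were above IV-D, with 29.1 and 43.4 against 18.3. It was 47.2 in IT and 28.9 in TE of IV-D, and in the blastocyst parts of the clones between 8.14 and 12.3.

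At the IV-D step to the 8-cell stage 6 of the 7 genes of this list were higher and 1, NME7, was lower, where 35.0% of all genes were higher and 28.1% lower. The median log2 difference was 3.27, beside 0.25 for all genes tested. CKB, chosen on this step, is among the higher genes, and without it 5 of 6 were higher with a median of 2.73. Of those 6 only SLC6A8 handles creatine, so the count is mostly one of adenylate and nucleoside diphosphate kinases. In NT-D 5 were higher and 1 lower (median 3.08, all genes 0.13), beside 31.4% and 28.7% of all genes. In NT-LW 6 were higher and 1 lower (median 2.69, all genes 0.05), beside 28.1% and 25.6%. The NME genes did not share the 8-cell difference of CKB: against IV-D, NME1 was 2.41-fold higher in NT-D and 2.70-fold higher in NT-LW, and NME2 2.36-fold and 4.06-fold higher. These 2 genes belong to 1 family and could share reads, which was not examined. In all, 2 of the 7 genes, CKB and SLC6A8, were lower in each cloned group at the 8-cell stage, where 17.4% and 17.3% of all genes were lower in NT-D and NT-LW. The call of CKB was favoured by its choice for a high level in the IV-D 8-cell library. Another 2 of the 7 in NT-D and 3 in NT-LW were higher, where 10.8% and 16.3% of all genes were.

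**Figure D4:**
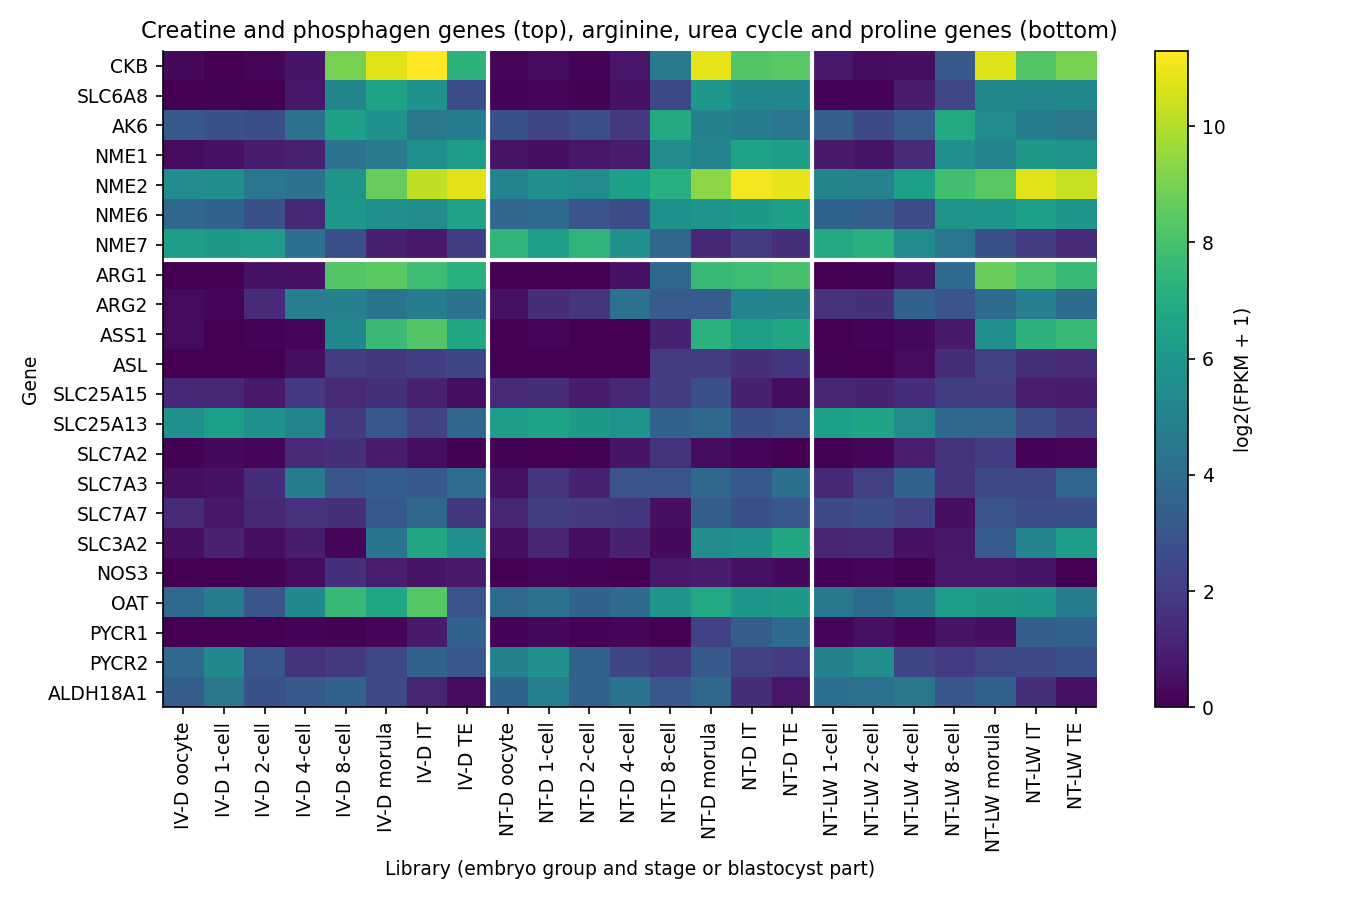
Heat map of log2(FPKM + 1) for the 7 creatine and phosphagen genes (above the white line) and the 15 arginine, urea cycle and proline genes (below it) in 23 libraries, with white vertical lines between IV-D, NT-D and NT-LW. CKB, SLC6A8, ARG1 and ASS1 are dark up to the 4-cell stage, and brighter in IV-D from the 8-cell stage and in the clones from the morula. The exception is SLC6A8 in IV-D TE (5.42 FPKM), near its level in the 8-cell clones (4.44 and 4.35). ARG2 is already visible at the 4-cell stage (27.3 FPKM in IV-D).

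The other arginase was present earlier. ARG2 had 27.3 FPKM in IV-D 4-cell embryos, where ARG1 had 0.466, which makes ARG2 58.7 times as abundant per length. From the 8-cell stage ARG1 was the more abundant in every library, by 10.5-fold in IV-D, 1.55-fold in NT-D and 2.06-fold in NT-LW 8-cell embryos and by 17.6- to 28.9-fold in morulae. ARG2 itself stayed between 6.91 and 34.0 FPKM from the 8-cell stage on.

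Of 30 genes listed for arginine, urea cycle and proline metabolism 15 were in the table, and 13 were tested at the IV-D step to the 8-cell stage. Of these 5 were higher: ARG1, the argininosuccinate synthetase ASS1 (0.159 to 38.1 FPKM), the ornithine aminotransferase OAT (41.5 to 189), the lyase ASL (0.367 to 2.86) and the nitric oxide synthase NOS3 (0.296 to 1.86). The mitochondrial carrier SLC25A13 (33.5 to 2.70 FPKM) and the cationic amino acid transporter SLC7A3 (25.5 to 6.89) were lower. The counts are near the background of 35.0% higher and 28.1% lower, and the median log2 difference was 0.22, beside 0.25 for all genes. ARG1 was chosen on this step, and without it 4 of 12 were higher with a median of 0.17. In NT-D 4 of 13 were higher and 4 lower (median 0.03), beside 31.4% and 28.7% of all genes, and in NT-LW 3 and 4 of 11 (median -0.35), beside 28.1% and 25.6%.

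Against IV-D 8-cell embryos 5 of 13 genes of this list were lower in NT-D and 6 of 13 in NT-LW, beside 17.4% and 17.3% of all genes, with 1 higher in each, SLC25A13, beside 10.8% and 16.3%. ARG1 is counted among the lower genes, a call favoured by its choice for a high level in this IV-D library. ASS1, which makes argininosuccinate on the way back to arginine, was lower with ARG1: it had 38.1 FPKM in IV-D, 1.07 in NT-D and 0.770 in NT-LW, which is 35.5-fold and 49.4-fold lower. ARG2 was 3.48-fold and 4.24-fold lower and OAT 3.25-fold and 2.63-fold lower. The list medians, with ARG1 included, were -0.46 in NT-D and -0.74 in NT-LW, beside -0.12 and -0.02 over all genes.

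In the IV-D blastocyst 4 of 13 tested genes of the list were higher in IT than in TE, beside 18.0% of all genes, none of them ARG1: OAT (319 and 6.58 FPKM), the light chain transporter SLC7A7 (12.2 and 2.53), ASS1 (311 and 106) and the heavy chain SLC3A2 (109 and 51.8). The proline enzyme PYCR1 and SLC25A13 were lower, beside 9.83% of all genes. In NT-D none of 12 and in NT-LW 1 of 12 were higher, near the 4.32% and 5.07% of all genes.

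The polyamine enzyme that uses the product of arginase rose with it. ODC1 had 5.88 FPKM in IV-D 4-cell and 479 in IV-D 8-cell embryos, an 81.5-fold increase, and 88.5 and 58.4 FPKM in NT-D and NT-LW 8-cell embryos, 5.41-fold and 8.20-fold lower than IV-D. Unlike ARG1 it was not near 0 before, with 21.0 and 28.4 FPKM at the 4-cell stage of the clones. Its morula levels were 897, 521 and 522 FPKM in IV-D, NT-D and NT-LW. Of the 13 polyamine genes in the table, out of 20 listed, 2 were higher at the IV-D step, ODC1 and the transporter ATP13A3, and 3 were lower: the spermine synthase SMS (68.4 to 7.09 FPKM), the antizyme OAZ2 and the antizyme inhibitor AZIN2. Both counts are below the background of 35.0% higher and 28.1% lower. The list median was 0.41, and -0.19 in NT-D and -0.65 in NT-LW. At the 8-cell stage 4 of 12 tested were lower in NT-D than in IV-D and 5 of 12 in NT-LW, beside 17.4% and 17.3% of all genes, among them AZIN1, which protects ODC1 from degradation, at 130 FPKM in IV-D, 32.8 in NT-D and 24.5 in NT-LW. SMS went the other way, at 7.09 FPKM in IV-D, 23.3 in NT-D and 28.2 in NT-LW. Of all genes 10.8% were higher in NT-D and 16.3% in NT-LW.

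Glycolysis, the other rapid source of ATP, had 14 of 23 listed genes in the table. At the IV-D step 7 of 12 tested were higher, beside 35.0% of all genes, led by ENO1 (2.14 to 112 FPKM), LDHB and GPI, and HK2 and ALDOC were lower, beside 28.1%, with a median of 1.60, beside 0.66 in NT-D and 1.43 in NT-LW. ENO1 was 17.1-fold lower in NT-D and 19.9-fold lower in NT-LW than in IV-D 8-cell embryos, and 6 of 11 genes of the list were lower in NT-D, beside 17.4% of all genes, and 2 of 12 in NT-LW, near the background of 17.3%. LDHB and LDHA went the other way in NT-LW, at 104 and 118 FPKM against 30.0 and 42.0 in IV-D, where 16.3% of all genes were higher. In NT-D, LDHA was at 83.3 FPKM and LDHB was below IV-D, at 7.38.

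The genes most like each of the 2 over all 23 libraries, among them the IV-D 4-cell and 8-cell libraries on which both were chosen, were found by the root mean square difference of mean-centred log2(FPKM + 1), among 5645 other genes with a symbol and at least 10 FPKM in some library. ARG1 was the nearest to CKB, at 1.07, a likeness that the choice partly fixes, followed by the receptor-associated protein LRPAP1 (1.32), the biliverdin reductase BLVRB (1.32), the mitochondrial phosphate carrier SLC25A3 (1.36) and the pyridoxal kinase PDXK (1.38). The nearest to ARG1 were BLVRB (0.668), SLC25A3 (0.715), the respiratory chain genes NDUFAB1 (0.773) and NDUFA9 (0.823) and the electron transfer flavoprotein subunit ETFB (0.919), and CKB was the 13th. BLVRB had 373 FPKM in IV-D 8-cell embryos and 24.5 and 31.9 in those of NT-D and NT-LW, whereas NDUFAB1 had 177, 126 and 132.

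Likeness depended on the measure. By Spearman's rho none of the nearest 5 of either gene was shared, and over the 12 libraries from the 8-cell stage onward PDXK alone remained among the 5 nearest to CKB and none among those of ARG1. ARG1 was the 388th gene from CKB by rho and the 10th from the 8-cell stage onward, and CKB the 152nd and the 589th from ARG1. The libraries fell into the 11 up to the 4-cell stage and the 12 later ones, so no pooled correlation of CKB with ARG1 is given. Within the later 12 Pearson's r of log2(FPKM + 1) was 0.877 and Spearman's rho 0.566. Without the 2 libraries farthest from the CKB median, the NT-D and NT-LW 8-cell embryos, r was 0.427 over 10 libraries, so the relation rests on those 2.

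**Figure D5:**
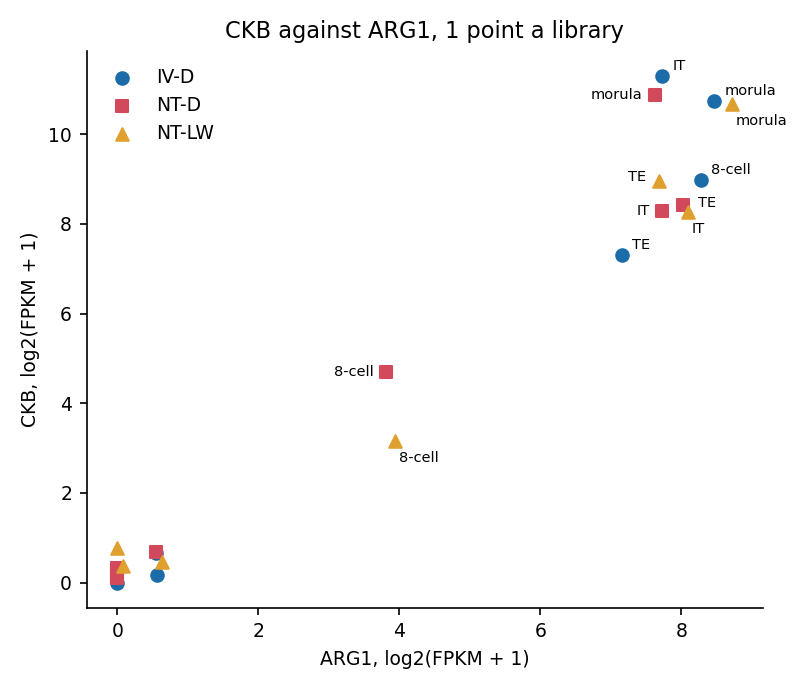
CKB against ARG1, both as log2(FPKM + 1), 1 point for each of 23 libraries, with stage names beside the 12 points from the 8-cell stage onward. The libraries up to the 4-cell stage lie together near 0, the 2 cloned 8-cell libraries lie between, and among the other 10 the points spread over the CKB axis from 157 to 2519 FPKM with ARG1 between 142 and 420.

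Depth was 14952784 to 22991067 fragments a library. Markers of other cells were read as sums over the listed genes in the table. Fibroblast markers (6 of 18) summed to 18.7 to 30.0 FPKM in the clones from the 1-cell to the 4-cell stage and to 4.32 to 6.20 in IV-D oocytes, 2-cell and 4-cell embryos, but to 28.5 in IV-D 1-cell embryos, where CKB and ARG1 had no fragment. From the 8-cell stage, where the 2 genes were high, the sum did not exceed 11.7 FPKM. That highest sum was in IV-D IT, where PDGFRA alone had 11.6 FPKM and COL1A1, COL1A2, COL3A1 and SPARC were at 0. Cumulus cell markers (3 of 14) summed to 21.8, 32.8 and 43.9 FPKM in IV-D, NT-D and NT-LW 8-cell embryos, of which HAS2 was at 0.241, 0 and 0.921. Their highest sum from the 8-cell stage onward, and of all 23 libraries, was 196 FPKM in the NT-LW morula, where FST alone had 178 and where ARG1 was also at its highest, 420. ARG1 is also a macrophage gene, but of 12 leukocyte and macrophage markers only AIF1 was in the table. Up to the 4-cell stage AIF1 was highest in IV-D 2-cell embryos, at 1.65 FPKM, where ARG1 had 0.481. In the 8-cell, morula, IT and TE libraries it had 0.447, 1.02, 2.26 and 81.2 FPKM in IV-D, where ARG1 had 309, 354, 212 and 142. In NT-D it had 0.870, 35.4, 83.5 and 63.8, beside ARG1 at 13.1, 197, 211 and 260, and in NT-LW 7.42, 16.4, 52.1 and 33.7, beside 14.3, 420, 272 and 204. AIF1 thus rose with ARG1 from the 8-cell stage to the morula in the clones and was low in the IV-D 8-cell, morula and IT libraries, where ARG1 was high. The part of cells with FST or AIF1 in the ARG1 levels was not tested.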

How the data were processed

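Libraries of polyA RNA were amplified with the SMART-Seq v4 kit. Per the submitters' processing notes and the study's methods, the authors used HISAT2 2.0.4 for alignment to Sscrofa11.1 and HTSeq 0.9.1 for read counts per gene, and deposited FPKM values for 8603 Ensembl genes, by the name of the table the differentially expressed ones. How these were chosen is not given in the sources used here, so shares of genes are shares of that table, and a gene that is not in it was not analysed here. Symbols matched 7371 of the identifiers.

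The number of fragments behind each FPKM value was worked out from the smallest steps of the table (100% of genes, tolerance 0.02 fragments), which gave depths of 14952784 to 22991067 fragments and gene lengths. The method was tested on simulated data. Levels carry exact Poisson intervals and ratios exact conditional (Clopper-Pearson) intervals, at 95%. They cover counting error only, and reads without molecular identifiers are not independent molecules. The recovered fragments were used for no test across genes, since the table has 1 library for each condition; the study's replicate libraries were not analysed here. Differences were taken on log2(FPKM + 1), and a fold rule (difference over 1, with 1 FPKM or more in at least 1 library) replaced a test. Fold changes are ratios of FPKM, so they exceed those on the log2(FPKM + 1) scale for low genes. The settings varied were the pseudocount (0.1), the lowest FPKM admitted (5 or none), rescaling to a sum of 1000000 and median-ratio scaling over genes above 0 in all libraries.

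The 2 genes, the pathway and marker lists and the comparisons were chosen with earlier results of these data known. The lists were written from general knowledge of the pathways. Named genes were CKB and ARG1, of each pathway list up to 4 called genes in a direction, the 5 nearest profiles of each gene, and the 3 largest IV-D rises with the next 2. ARG2 was named as the other arginase. Genes next to CKB and ARG1 and single markers were named after their values were seen. Positions and promoter windows were read from the RefSeq genome and annotation of Sscrofa11.1. Protein sequences were not used here. Intervals came from scipy 1.17.1, tables from pandas 2.3.3 on numpy 2.4.6, and plots from matplotlib 3.10.9, all under python 3.11.15.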

Additional observations from a re-analysis of the deposited data

Results flagged for a closer look

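CKB changed differently in the blastocysts of cloned and in vivo fertilized embryos. From morula to IT its log2(FPKM + 1) was higher in IV-D, which was not called, and called lower in both cloned groups. The change in NT-D minus that in IV-D was -3.15, that in NT-LW minus IV-D -2.97. From TE to IT it was far higher in IV-D and lower in the clones, where it was not called. The differences between these changes were -4.12 in NT-D and -4.69 in NT-LW. From morula to TE it was called lower in all 3 groups. ARG1 fell from morula to TE in IV-D and was higher in NT-D, which was not called, a difference between the changes of 1.71. Each change rests on 1 library at either end, so these differences were not tested, and those of the 2 cloned groups share the IV-D libraries.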

How the results depend on the processing

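Of 76 recomputed values 54 stayed within their counting interval (for counts, within 1.5 times), 22 moved and none changed direction. With a pseudocount of 0.1 the log2 differences between 4-cell and 8-cell embryos became 9.56, 5.16 and 4.07 for CKB in IV-D, NT-D and NT-LW and 9.10, 4.57 and 4.47 for ARG1, since the smaller pseudocount weighs the low 4-cell levels more. Rescaled to a sum of 1000000, the 8-cell differences from IV-D were -4.57 in NT-D and -6.16 in NT-LW for CKB and -4.76 and -4.65 for ARG1, and with median-ratio scaling those of NT-D were -4.09 and -4.26. At the IV-D step median-ratio scaling left 1 polyamine gene higher and 5 lower, and a minimum FPKM of 5 left 3 arginine genes higher and 1 glycolysis gene lower, with fewer genes tested. Of the nearest 5 profiles to CKB 0 were shared by Spearman's rho, 1 from the 8-cell stage onward and 2 with a pseudocount of 0.1, and to ARG1 0, 0 and 1. The cause of the scaling and likeness shifts was not tested. Median-ratio scaling kept 18 of 19 calls of CKB and 8 of 10 of ARG1, and the other settings kept all of them. With 1 library a condition, no replicate could be left out, and depth limits only the levels up to the 4-cell stage. No paired analysis was possible because the table used here has 1 library for each condition.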

Other observations

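Before the 4-cell stage a few fragments already differed between libraries. ARG1 had 21 fragments (0.481 FPKM) in IV-D 2-cell embryos, none in the NT-D 2-cell library and 2 in that of NT-LW, from which IV-D was 9.25-fold higher (2.26 to 81.4). In that IV-D library the macrophage marker AIF1 had 1.65 FPKM, its highest level up to the 4-cell stage. The part of cells with AIF1 in these ARG1 fragments was not tested. CKB had 24 fragments (0.705 FPKM) in NT-LW 1-cell embryos, 7 in NT-D and none in IV-D. These values cover counting error only, and each rests on 1 library.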
